A study of Dichotomyctere nigroviridis with 22 samples.

Results

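Neuropeptide and hypothalamic hormone genes of the green-spotted puffer (Dichotomyctere nigroviridis) were followed in the hypothalamus and the ovary. The members were the genes whose symbol matched a fixed pattern of neuropeptide names, together with the granins, the prohormone convertases and carboxypeptidase E. The pattern found 35 of the 20108 genes in the deposited tables, of which all 35 were in the hypothalamus table and 33 were in the ovary table (crhb was among those listed for the hypothalamus only). One of them, cpeb2, was caught by its name alone, because it encodes a protein that regulates translation and not a peptide or a peptide-processing enzyme. No agouti-related peptide, kisspeptin, galanin, somatostatin, melanin-concentrating hormone or growth hormone-releasing hormone gene was matched by symbol, and these hormones were not analysed here.

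Phoenixin-14 (PNX-14) is a short amidated peptide made in the hypothalamus. Wild-origin mature females at the vitellogenic stage, when yolk is laid down in the oocytes, were injected once into muscle with PNX-14 (100 ng/g) or with vehicle, and tissues were taken 24 h later. The hypothalamus groups held 6 PNX-14 treated fish (HT1 to HT6) and 6 controls (HC1 to HC6), and the ovary groups held 5 PNX-14 treated fish (OT2 to OT6) and 5 controls (OC1, OC2, OC3, OC5 and OC6). The sources differ on the vehicle (water or saline), the body weight and the form of the ovary sample (biopsy or whole organ), and none gives a batch.

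Neuropeptides are cut from longer precursor proteins inside dense core vesicles. Prohormone convertases such as those encoded by pcsk1 and pcsk2 cleave the precursor, carboxypeptidase E trims the ends, and granins help to pack the cargo. In fish, oxt encodes the precursor of isotocin and avp that of vasotocin, the hormones that correspond to mammalian oxytocin and vasopressin.

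The libraries held 9140910 to 10962243 counted reads in PNX-14 hypothalami and 9652996 to 12729314 in control hypothalami, with 11794062 to 15297852 in PNX-14 ovaries and 11756975 to 15735216 in control ovaries. A list of 14 hypothalamus transcription factor symbols matched 10 genes. Of these, otpa (11.4 to 25.4 counts per 1000000 reads, CPM) and nkx2.4a (24.6 to 40.5 CPM) were present in all 12 hypothalami. In the ovaries otpa and nkx2.4a were at most at 0.488 and 0.124 CPM. The lhx9 gene ENSTNIG00000010177 was also present in all 12 hypothalami, at 15.7 to 26.0 CPM. It was at 10.65 to 28.99 CPM in the ovaries, so it is not specific to hypothalamus. The other lhx9 gene, ENSTNIG00000001851, was at 0 in several hypothalami and at most at 0.632 CPM. nr5a1a was at 2.08 to 8.31 CPM in the hypothalami and at 17.997 to 54.17 CPM in the ovaries. For rx3 these ranges were 2.95 to 5.51 CPM and 4.98 to 9.43 CPM. The most abundant gene of the list in the hypothalami, sf1, was at 43.8 to 66.2 CPM there and at 27.4 to 50.8 CPM in the ovaries. It was matched by symbol alone, and what it encodes was not checked. Between organs of control fish, 8 genes of the list were tested, with 4 called higher and 2 lower in hypothalamus, against 43.4% and 38.5% of all genes. Of the 6 pituitary genes found, the hormones prl, lhb and tshba stayed at or below 0.62 CPM, pou1f1 at or below 1.58 CPM and smtla at or below 3.83 CPM. The sum of the 6 genes was 19.6 to 31.0 CPM in PNX-14 hypothalami and 19.3 to 38.3 CPM in control hypothalami. RNA of oocyte marker genes, called egg RNA here, was found in every hypothalamus library, and none of the 12 genes found was at 0. Their summed level ranged between 229.7 and 4651 CPM in PNX-14 hypothalami and between 125.1 and 4814 CPM in control hypothalami. Over the ovaries it was 20244 to 36848 CPM. The low end rested partly on larp6a, which gave 47.5 of the 125.1 CPM in HC3 and 52.3 of the 229.7 CPM in HT6. In HC3 bmp15 was at 0.758 CPM. Whether larp6a or the other oocyte markers in these libraries came from eggs was not tested.

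The members took 0.541% to 0.803% of all counted reads in PNX-14 hypothalami and 0.471% to 0.661% in control hypothalami, and 0.0433% to 0.0511% over all ovaries. In the hypothalamus the isotocin precursor gene oxt was the most abundant of them, at 4188 ± 1510 FPKM (SD, n = 12; fragments per kilobase of gene length, scaled to the mapped reads of the library, the scale on which levels of different genes are compared here). It alone took 16.5% to 43.7% of the members' counts, depending on the library. The carboxypeptidase gene cpe followed at 676 ± 59.9 FPKM and the granin gene scg2b at 434 ± 61.7 FPKM. Over the 12 libraries oxt lay wholly above cpe and cpe wholly above scg2b, whereas every other pair of neighbours in the order overlapped.

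**Figure D1:**
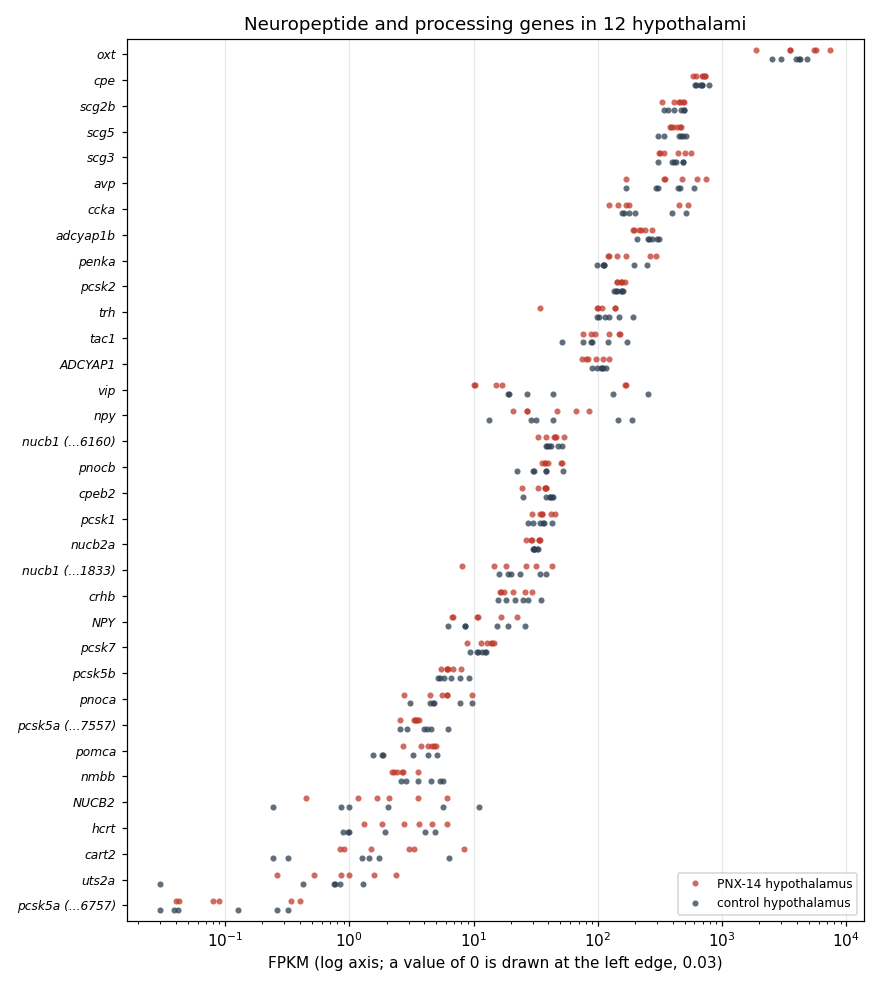
FPKM (log axis) of 34 members in the 12 hypothalamus libraries, ordered by mean level, with PNX-14 libraries in red above control libraries in dark blue. The members spanned from 4188 FPKM for oxt to 0.148 FPKM for the second pcsk5a gene, and red and blue points overlapped in every row.

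The remaining processing and granin genes covered a wide range of levels, from 424 FPKM for scg5 to 0.148 FPKM for the second pcsk5a gene. The granin genes scg5 (7B2, a chaperone of the convertase PC2) and scg3 averaged 424 and 415 FPKM, and pcsk2 averaged 151 FPKM with a coefficient of variation of 6.8% of its CPM over the 12 libraries. pcsk1 averaged 35.9 FPKM with 14.9%. Several peptide precursors varied more between libraries, although adcyap1b (16.1%) and ADCYAP1 (15.4%) varied less than scg3 (21.3%). The vasotocin gene avp averaged 414 ± 178 FPKM, the cholecystokinin gene ccka 267 ± 156 FPKM, the enkephalin gene penka 166 ± 68.5 FPKM, and vip, the precursor of vasoactive intestinal peptide, 73.5 ± 83.5 FPKM (SD, n = 12 each), with a coefficient of variation of 113% for vip. Of the other precursors, adcyap1b and ADCYAP1 (both PACAP) averaged 246 and 99.8 FPKM, trh (thyrotropin-releasing hormone) 116 FPKM, tac1 (substance P) 107 FPKM and crhb (corticotropin-releasing hormone) 22.4 FPKM. FPKM depends on the annotated length of each gene, which was 300 bases for both neuropeptide Y genes.

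At the low end, pomca (the precursor of corticotropin, melanotropins and beta-endorphin) averaged 3.59 FPKM, nmbb (neuromedin B) 3.37 FPKM and hcrt (orexin) 2.84 FPKM. cart2 averaged 2.44 FPKM with 1 to 26 reads per library, and uts2a (urotensin) 0.888 FPKM with 0 to 8 reads. hcrt, cart2, uts2a and the second pcsk5a gene were too low in the hypothalamus for the test and are given by their levels only. Several members have a copy under the same or nearly the same name (npy and NPY, adcyap1b and ADCYAP1, a pair named nucb1 and a pair named pcsk5a), so that reads may have been split between copies and each copy's level is uncertain.

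The first comparison asked which members changed in the hypothalamus after PNX-14. Of the 31 members tested with edgeR's quasi-likelihood test, 0 passed an adjusted p of 0.05, as did 0% of all 17126 genes tested. At an unadjusted p under 0.05 there were 2 members, adcyap1b and nmbb, against 3.9% of all genes (668 of 17126). DESeq2 and limma-voom also called 0 members. The fold change was positive in 14 of the 31 members, and its median was -0.01 on the log2 scale, against 0.01 over all genes, of which 8826 were positive. In bulk tissue, fewer cells of a type and less RNA per cell cannot be told apart.

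adcyap1b (ENSTNIG00000018649, on an unplaced scaffold), 1 of the pair of PACAP precursor genes, ranged from 98.4 to 141.7 CPM (median 114.7) in PNX-14 hypothalami and from 108.0 to 162.4 CPM (median 138.7) in control hypothalami. The groups overlapped, although HT3 and HT4 lay below every control and HC1, HC2 and HC3 above every treated library. Its log2 fold change was -0.26 (SE 0.11, unadjusted p = 0.0403, edgeR adjusted p = 0.979). nmbb (ENSTNIG00000001349, chromosome 5, 2444160 to 2444782) had a median of 1.02 CPM (0.868 to 1.40) in PNX-14 hypothalami and 1.61 CPM (1.04 to 2.24) in control hypothalami, with 9 to 13 reads per treated library and 10 to 27 per control library. Its log2 fold change was -0.63 (SE 0.29, unadjusted p = 0.043, edgeR adjusted p = 0.979). Under the other settings tried, the unadjusted p stayed under 0.05 in 13 of 23 for adcyap1b and in 5 of 22 for nmbb.

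The appetite-related precursors varied widely within both groups. Neuropeptide Y, a feeding-stimulating peptide, is encoded by 2 listed genes. npy had 6.31 to 25.0 CPM (median 11.1) in PNX-14 hypothalami and 4.04 to 57.4 CPM (median 11.2) in control hypothalami, where HC3 (57.4 CPM) and HC5 (43.1 CPM) stood above all other libraries. Its log2 fold change of -0.74 (SE 0.63, edgeR adjusted p = 0.979) was -0.21 without HC3, -0.45 without HC5 and -0.12 with the telencephalon marker level as a term. That marker list, 9 of 10 genes found, had its highest mean level in HC5 (2.93 on the log2 CPM scale, against 0.927 to 1.94 over the other 11 libraries). HC3 was at 1.91, below HT6. Its genes differed: foxg1a was highest in HC5 and HC3 (7.88 and 4.26 CPM), whereas eomesa was lowest in HC3 (9.85 CPM). eomesa was at 244 to 452 CPM in the ovaries, so the list is not specific to telencephalon in libraries with egg RNA. Beyond that fit, the part of this list in the npy values was not tested. NPY had a median of 3.21 CPM (2.07 to 6.74) in PNX-14 hypothalami and 3.60 CPM (1.87 to 7.71) in control hypothalami, with a log2 fold change of -0.17 (SE 0.39) that turned to 0.09 without HC1.

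pomca, which had 17 to 33 reads per PNX-14 library and 9 to 33 per control library, showed the highest positive value among the members tested. It had 1.68 to 2.95 CPM (median 2.73) in PNX-14 hypothalami and 0.925 to 3.08 CPM (median 1.56) in control hypothalami, with a log2 fold change of 0.49 (SE 0.33, edgeR adjusted p = 0.979). The groups overlapped, with 3 controls (HC1, HC2 and HC6) below every treated library and 1 control (HC4) above them.

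The hormones of the stress and thyroid axes also overlapped between groups. crhb, whose peptide drives corticotropin release, had a median of 9.49 CPM (7.96 to 14.3) in PNX-14 hypothalami and 11.5 CPM (7.77 to 17.1) in control hypothalami, with a log2 fold change of -0.18 (SE 0.22). trh had 30.7 to 121.0 CPM (median 92.7) in PNX-14 hypothalami and 87.0 to 167.7 CPM (median 105.8) in control hypothalami. HT3 was the only library under 80 CPM. The log2 fold change of trh was -0.34 (SE 0.27, edgeR adjusted p = 0.979). It was positive (0.17) when the 5 hypothalami with most egg RNA in an earlier analysis (HC1, HC2, HC5, HT3 and HT4) were left out. That set took out HT3 and also the controls with the highest trh, HC1, HC2 and HC5 (129.9, 110.3 and 167.7 CPM).

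**Figure D2:**
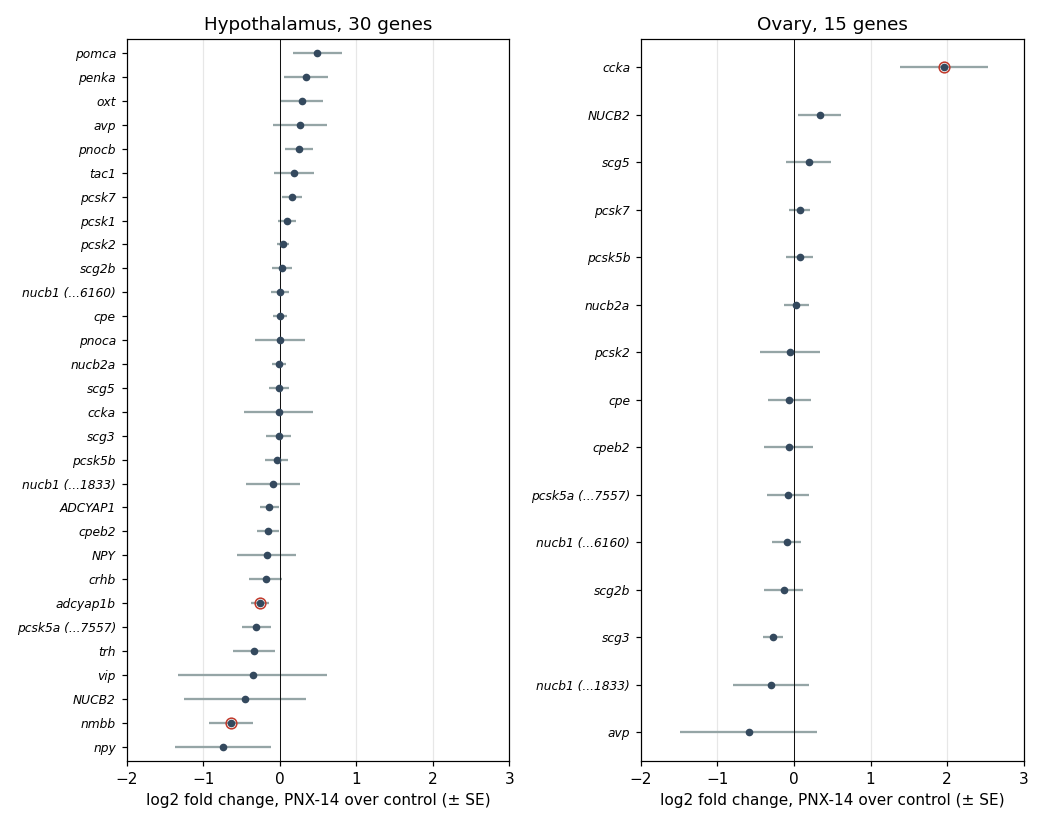
Log2 fold change, PNX-14 over control, with its SE, of 30 members tested in hypothalamus (left) and the 15 tested in ovary (right), ordered by size. Red rings mark an unadjusted p under 0.05, which adcyap1b, nmbb and, in ovary, ccka reached, while no member passed the adjusted threshold.

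oxt and avp lie 19519 bases apart on chromosome 12 in the TETRAODON 8.0 assembly, both on the minus strand. avp is at 9135636 to 9136702 and oxt at 9156221 to 9157076. Whether other genes lie between them was not checked. oxt had 2588, 3569, 1704, 1652, 899 and 2678 CPM in HT1 to HT6, and 1414, 1210, 1980, 2286, 1987 and 1861 CPM in HC1 to HC6. The treated libraries included both the lowest (HT5) and the highest (HT2) value. The log2 fold change was 0.29 (SE 0.28, edgeR adjusted p = 0.979). avp had 286, 345, 159, 156, 78.7 and 218 CPM in HT1 to HT6, and 133, 78.4, 141, 205, 269 and 209 CPM in HC1 to HC6, with a log2 fold change of 0.26 (SE 0.35). Over 23 other settings, none of which called either gene, the value of oxt lay between 0.09 (without HT2) and 0.45 (without HT5), and that of avp between 0.06 (without HT2) and 0.43 (without HC5). The spread within each group was larger than the difference between the group means for both genes.

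The pair moved together from fish to fish. Over the 12 hypothalami the log2 CPM of oxt and avp correlated with Pearson's r = 0.91 (permutation p = 5.0e-05, adjusted 0.000600) and Spearman's rho = 0.90 (permutation p = 0.000250, adjusted 0.00198). r was 0.98 within the 6 PNX-14 libraries and 0.83 within the 6 controls, and 0.83 over 10 libraries when the pair farthest from the median of avp (HC2 and HT5) was left out. This was 1 of 12 relations computed, all chosen with the values known, and p-values were adjusted over the 12. That adjustment does not cover the choice of the pairs. The ratio of oxt to avp counts lay between 7.38 (HC5) and 15.4 (HC2).

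**Figure D3:**
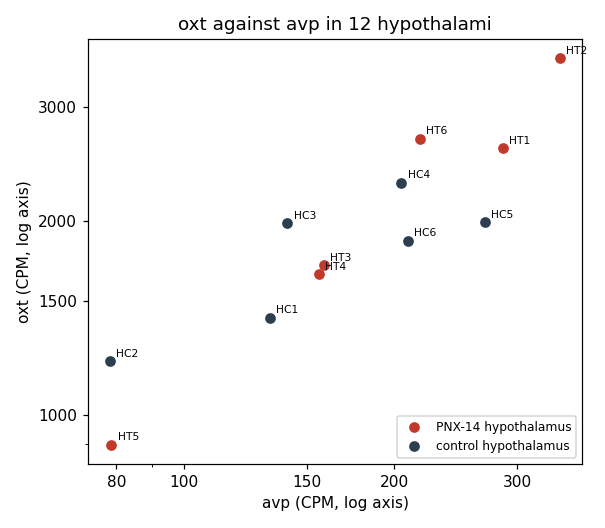
CPM of oxt against CPM of avp (both log axes) in the 12 hypothalami, each point 1 library, with PNX-14 libraries in red and controls in dark blue. The points rise along a band with r = 0.91, and HT2 and HT5 lie at its ends.

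The levels of avp and oxt were also set against those of the orthopedia transcription factors, which in zebrafish are needed for neurons that make these hormones. otpa correlated with avp (r = 0.81, rho = 0.77, permutation p = 0.00154 and 0.00485, adjusted 0.00616 and 0.0116; 0.82 without HC3 and HT2; 0.91 within PNX-14 and 0.68 within control libraries). otpb correlated with oxt (r = 0.74, rho = 0.86, permutation p = 0.00534 and 0.000770, adjusted 0.0128 and 0.00308; 0.74 without HC4 and HT6; 0.83 and 0.78 within the PNX-14 and control libraries). For otpb with avp, r was 0.67 (permutation p = 0.0175, adjusted 0.03003) and rho 0.73 (permutation p = 0.00997, adjusted 0.0199), with r = 0.76 without HC4 and HT6. For otpa with oxt, r was 0.67 (permutation p = 0.0172, adjusted 0.03003) and rho was 0.62 (permutation p = 0.0377, adjusted 0.0646), which did not pass after adjustment. Its r was 0.72 without HC3 and HT2, 0.85 within PNX-14 libraries and 0.24 within control libraries. otpa with crhb (r = 0.46), otpb with crhb (r = 0.30) and both with trh (r = 0.22 and -0.05) did not pass (permutation p = 0.132, 0.342, 0.506 and 0.886, adjusted 0.198, 0.441, 0.552 and 0.886). For otpa with crhb, r was 0.71 without HC3 and HT2, 0.35 within PNX-14 libraries and 0.89 within control libraries. For otpb with crhb, r was 0.14 without HC4 and HT6. With trh, r was 0.36 for otpa without HC3 and HT2, and -0.03 for otpb without HC4 and HT6. All these values share their libraries. The pairs were chosen with the values known, so these p-values are a description and not a separate test.

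The remaining precursors included a set with a few very high libraries. vip had 80.3 and 84.6 CPM in HT4 and HT5 against 5.03 to 8.39 CPM in the other 4 PNX-14 hypothalami, and 124 and 65.8 CPM in HC1 and HC6 against 9.37 to 21.96 CPM in the other 4 controls. The highest values of ccka, penka and NPY fell in these same libraries. ccka was at 288 and 249 CPM in HT4 and HT5 and at 281 and 219 CPM in HC1 and HC6, and no other library exceeded 110 CPM. penka was at 178, 208, 136 and 172 CPM in these libraries, where no other exceeded 116.5 CPM, and NPY was at 4.92, 6.74, 7.71 and 5.68 CPM, where no other exceeded 4.61 CPM. In all, 4 of the 31 members tested, vip itself included, had their 4 highest values there, against 0.397% of all 17126 genes. Each treatment held 2 of these libraries, so the pattern did not follow PNX-14. Because vip picked out the libraries, this is a description with no test.

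**Figure D4:**
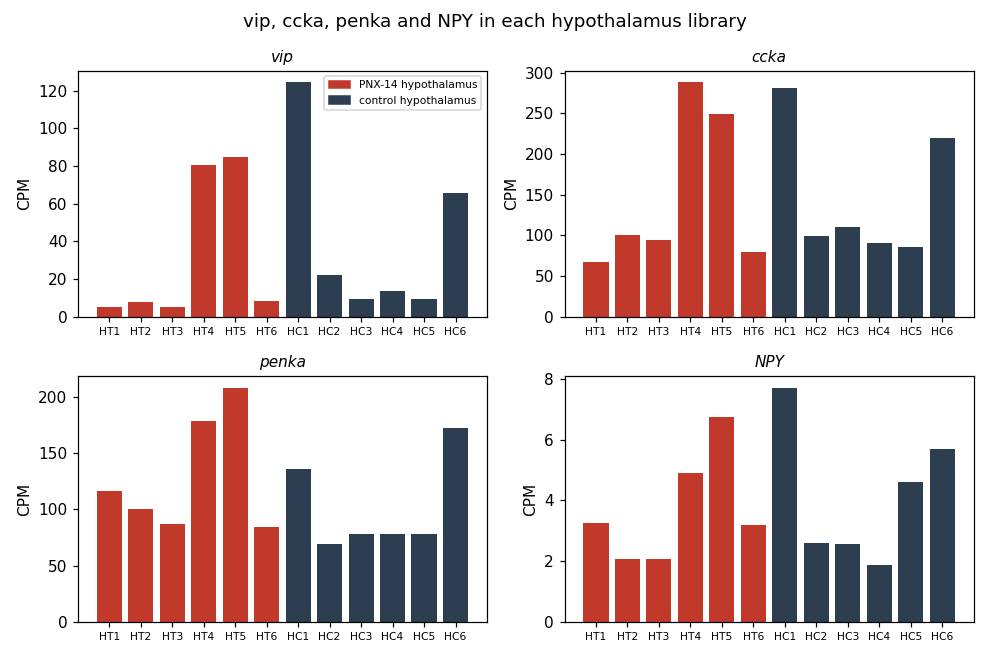
CPM of vip, ccka, penka and NPY in each hypothalamus library, PNX-14 (red) left of control (dark blue), 1 bar per library. HT4, HT5, HC1 and HC6 held the 4 highest bars for each gene, for vip at 65.8 to 124 CPM.

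In the ovary, 15 members passed the filter on low counts. Of these, 0 passed an adjusted p of 0.05, against 0.0135% of all genes (2 of 14777). At an unadjusted p under 0.05 there was 1 member, ccka, against 7.99% of all genes (1180 of 14777). The median fold change of the members was -0.06 on the log2 scale and that of all genes -0.02, and DESeq2 and limma-voom called 0 members as well.

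ccka (ENSTNIG00000019093, chromosome 8, 3372455 to 3374825, minus strand) encodes cholecystokinin, a peptide known from the gut and the brain. It had 6.14, 1.08, 0.841, 1.42 and 1.79 CPM in OT2 to OT6 (69, 13, 11, 23 and 23 reads), and 0.689, 0.633, 0.569, 0.733 and 0.247 CPM in OC1, OC2, OC3, OC5 and OC6 (9, 7, 7, 9 and 4 reads). Every PNX-14 ovary lay above every control ovary, as was so for 0.765% of all genes tested (113 of 14777). The log2 fold change was 1.96 (SE 0.58, unadjusted p = 0.00446, edgeR adjusted p = 0.562), and 1.15 without OT2 (unadjusted p = 0.023, adjusted p = 0.643). Over the other settings the edgeR, DESeq2 and limma adjusted p ranged from 0.206 to 0.879.

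OT2 also held the highest ovary level of 7 of the 17 neuron, glia and myelin marker genes found, and the lowest of 2, elavl3 and rbfox3b. Of the 7, elavl4 and OLIG2 were low, both at 0.267 CPM (elavl4 was at 0.249 CPM in OT3). The share of all genes that were highest in OT2 was not counted. Among the 7, snap25a (a synaptic protein) was at 2.76 CPM there, against at most 0.732 CPM over the other 9 ovaries, and the glial and myelin genes slc1a2b and plp1b were at 1.78 and 1.33 CPM, against at most 0.249 and 0.163 CPM. Set against the mean of the 12 hypothalami, these were 0.148%, 0.216% and 0.142%, and oxt in OT2 (3.91 CPM) was 0.197%. On the same scale ccka in OT2 was 4.18%, vip 2.21%, avp 1.27%, scg5 1.15%, pcsk1 0.445% and gfap 0.410%. Of these genes, ccka, scg5 and gfap were highest in OT2. The others were higher elsewhere, with vip at 3.86% in OT6, avp at 4.33% in OT3 and pcsk1 at 0.773% in OT5. The mean of ccka came from hypothalami at 67.1 to 288 CPM. Where the ccka RNA of OT2 came from was not tested. Summed over the 7 neuron markers found, PNX-14 ovaries had 11.0 to 18.5 CPM and control ovaries 10.8 to 15.0 CPM, mostly from elavl3, and snap25a was at 0 in OT3, OT4, OT5 and OC2. The other 4 PNX-14 ovaries, with ccka at 0.841 to 1.79 CPM, had snap25a at or below 0.156 CPM.

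The vasotocin gene avp was also among the members tested in the ovary. It had 2.402, 8.22, 0.229, 0.371 and 0.545 CPM in OT2 to OT6, and 0.689, 6.96, 6.26, 1.87 and 1.91 CPM in OC1, OC2, OC3, OC5 and OC6. The groups overlapped, although OT4, OT5 and OT6 lay below every control and OT3 above every control, with 3 to 99 reads per library. The log2 fold change was -0.59 (SE 0.90, edgeR adjusted p = 0.917). It lay between -2.0004 (without OT3, adjusted p = 0.849) and -0.21 (without OC2) over 17 other settings, none of which called it, and the unadjusted p was under 0.05 in 2 of them.

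A direct test of whether the organs differed in their response to PNX-14 covered 31 members. edgeR called 0, as did DESeq2, against 0.00568% of all genes (1 of 17612). At an unadjusted p under 0.05 there was 1, ccka, against 6.26% of all genes (1102 of 17612). The log2 difference of ccka, hypothalamus response minus ovary response, was -2.02 (SE 0.84, unadjusted p = 0.0255, edgeR adjusted p = 0.739), and -1.23 without OT2 (adjusted p = 0.899).

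Between the organs of control fish the members differed strongly. Of the 29 tested, 25 were higher in the hypothalamus, against 43.4% of all genes (7431 of 17115), and 3 were lower, against 38.5% (6590 of 17115). The median log2 difference was 5.06 over the members and 0.16 over all genes. The 5 highest fitted differences were those of oxt, npy, trh, adcyap1b and the convertase gene pcsk1, and the granins scg5 and scg2b (6.70 and 6.46) lay above the precursors tac1 (6.31) and avp (5.32).

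**Figure D5:**
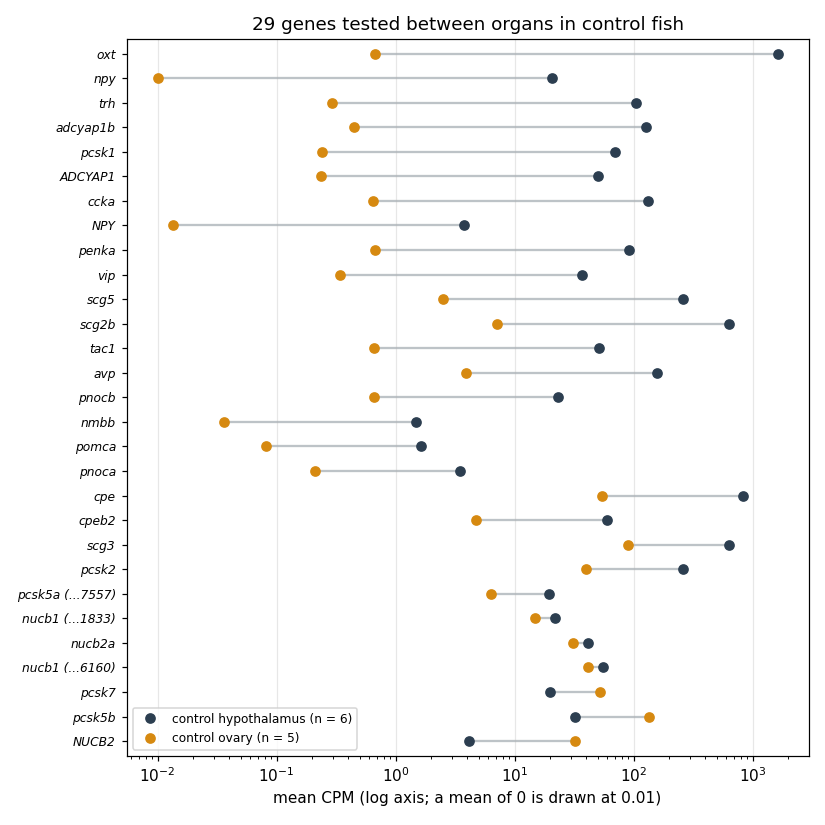
Mean CPM (log axis) of the 29 members tested in control hypothalami (dark blue, n = 6) and control ovaries (orange, n = 5), ordered by the log2 difference. Dark blue lies right of orange for all but pcsk7, pcsk5b and NUCB2 at the bottom, and npy, at 0 reads in the ovaries, is drawn at 0.01.

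oxt had the largest fitted difference, with 1620 CPM in control hypothalami and 0.677 CPM in control ovaries (38 reads over 5 libraries) when both were scaled together, a log2 difference of 11.2 (SE 0.41, edgeR adjusted p = 8.16e-11). trh was at 104.6 and 0.293 CPM, adcyap1b at 126.9 and 0.444 CPM and pcsk1 at 70.1 and 0.240 CPM in control hypothalami and control ovaries, with log2 differences of 8.36, 8.11 and 8.04 (SE 0.43, 0.40 and 0.37; the highest edgeR adjusted p was 1.16e-09). npy had 1537 reads over the control hypothalami and 0 over the control ovaries, and was at least 407-fold higher in the hypothalamus, against a floor of 3 counts over the group. NPY and nmbb had 1 and 2 reads over the control ovaries, with ratios of 221 (95% counting interval 39.6 to 8724) and 43.3 (11.99 to 357.6), intervals that cover counting error only. The order of oxt and avp by level differed between the organs of control fish. oxt and avp averaged 3776 and 376 FPKM in control hypothalami, and 1.27 and 7.39 FPKM in control ovaries, where avp exceeded oxt in every library but OC1. In PNX-14 ovaries avp exceeded oxt in OT3, OT4 and OT5. The reverse held in OT2 (oxt 7.87 and avp 4.99 FPKM) and OT6 (2.82 and 1.20 FPKM).

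The most abundant members in the ovary came from several groups. Over the 10 ovaries scg3 averaged 43.5 ± 7.82 FPKM, cpe 35.0 ± 11.3 FPKM and the nucb1 gene ENSTNIG00000006160 25.3 ± 4.49 FPKM (SD, n = 10). pcsk7, NUCB2 and pcsk5b followed at 24.8, 24.4 and 23.2 FPKM, whereas the granins scg2b (3.78 FPKM) and scg5 (3.52 FPKM) ranked below avp (6.23 FPKM). In control fish the first 3 of these were still higher in the hypothalamus, by 2.83 for scg3 (SE 0.17), 3.94 for cpe (SE 0.23) and 0.42 for that nucb1 gene (SE 0.14, edgeR adjusted p = 0.0123) on the log2 scale. scg2b was higher by 6.46 (SE 0.22).

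NUCB2, pcsk5b and pcsk7 were lower in the hypothalamus. NUCB2, a copy of the gene for the nesfatin precursor, was at 4.15 CPM in control hypothalami and 32.0 CPM in control ovaries (log2 difference -2.95, SE 0.72, edgeR adjusted p = 0.00215). pcsk5b was at 32.0 and 133.7 CPM (-2.06, SE 0.22, adjusted p = 9.85e-07) and pcsk7 at 19.8 and 52.4 CPM (-1.40, SE 0.14, adjusted p = 6.96e-07). Both encode convertases of the general secretory pathway. The other nesfatin precursor gene, nucb2a, was at 41.6 CPM in control hypothalami and 30.7 CPM in control ovaries.

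Because hypothalami held egg RNA, the ovary-rich members were set against the oocyte markers over the 12 hypothalami. NUCB2 had 0.316 to 14.4 CPM there and correlated with the mean oocyte marker level (r = 0.83, rho = 0.88, permutation p = 0.00115 and 0.000330, adjusted 0.00616 and 0.00198; 0.87 without HC3 and HC5; 0.99 within PNX-14 and 0.75 within control libraries). pcsk5b did so as well (r = 0.77, rho = 0.80, permutation p = 0.00383 and 0.00274, adjusted 0.0115 and 0.00822; 0.84 without HC3 and HC5). pcsk7 did not pass (r = 0.29, rho = 0.20, permutation p = 0.367 and 0.546, adjusted 0.441 and 0.546). These 3 genes were picked for being higher in the ovary, and that choice favours a rise with egg RNA. The p-values are therefore a description and not a separate test. In PNX-14 fish, tested apart, 24 of 29 members were higher and 3 lower in the hypothalamus, against 44.5% and 41.4% of all genes (7569 and 7051 of 17025).

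The receptors of neuropeptides, taken as a list of 84 symbols that matched 53 genes, gave the other side of these systems. In the hypothalamus, 43 were tested after PNX-14 and 0 were called, with 16 positive, 27 negative, 3 at an unadjusted p under 0.05 (against 3.9% of all genes) and a median of -0.10 on the log2 scale. The median over all genes there was 0.01. In the ovary, 11 were tested and 0 called, with 3 at an unadjusted p under 0.05 (against 7.99% of all genes) and a median of 0.19, against -0.02. For the difference between the organs in response, 40 were tested and 0 called, with 12 positive and 28 negative. Of these, 8 had an unadjusted p under 0.05 (against 6.26% of all genes), and the median was -0.38, against -0.04. Between the organs of control fish, 30 of 36 were higher in the hypothalamus and 2 (vipr2 and nmbr) lower, against 43.4% and 38.5% of all genes, with a median log2 difference of 4.82, against 0.16. A further list, drawn up for dense core vesicles and peptide amidation, matched 24 genes. Whether each of them acts in these vesicles was not checked. Of the 24, 0 were called after PNX-14 in either organ (2 of 24 tested in hypothalamus and 1 of 20 in ovary at an unadjusted p under 0.05, against 3.9% and 7.99% of all genes). Between the organs of control fish, 15 of the 24 were higher and 7 lower in the hypothalamus, against 43.4% and 38.5% of all genes, with a median of 2.17.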

How the data were processed

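RNA-seq of poly(A) libraries was done on 12 hypothalami and 10 ovaries. The authors mapped reads to TETRAODON 8.0 with HISAT2 and made the gene counts with featureCounts. Neither versions nor the strand setting of the counting were given in the sources used here. The deposited counts are whole numbers with no normalization, and the authors divided the deposited FPKM by gene length and mapped reads. Per the labels DESeq2 was the submitters' test. Their fold changes and p-values, and 22 columns of normalized counts, were not used.

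Counts were filtered with filterByExpr, given TMM factors and fitted in edgeR 4.0.16 under R 4.3.3, with the robust quasi-likelihood test, within each organ, between organs of control fish, and for the interaction over 22 samples, with Benjamini-Hochberg adjustment over all genes tested at 0.05. The fits were tested on simulated data. CPM are on the TMM scale of each fit. Alternatives were DESeq2 1.42.0, limma-voom 3.58.1, RLE scaling, no filter, at least 10 counts in every sample, marker levels as terms, replicate numbers as a block, and leaving out each library. The term for telencephalon markers and the set without 5 hypothalami rich in egg RNA were added after seeing the data. List levels are means of log2 CPM with a prior count of 2. Relations across hypothalami used log2(CPM + 0.5) and 100000 permutations, two-sided. The floor was 3 counts.

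Members and lists were chosen with earlier results of these data known. Every member could be named with levels, with fold changes given for members at an unadjusted p under 0.05, for classical hormones, and for the members most different between organs or most abundant. The labels do not say whether ovary and hypothalamus samples with the same number came from the same fish. In the paper both tissues came from the same set of injected fish, so the organs share animals. The main tests between organs treated their libraries as independent. No sequences were used. Counts of members cover all of them, but 1 member is not reported here and is not drawn.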

Additional observations from a re-analysis of the deposited data

Results flagged for a closer look

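Of 28 groups checked for a library standing far from the rest, over the members whose values per library are given, 2 were found, where chance gives about 1 in 20. In PNX-14 ovaries ccka was at 6.14 CPM in OT2, and the gap to the next library took up 0.82 of the range of the group. Its log2 fold change was 1.96 with OT2 and 1.15 without it, and every other PNX-14 ovary also lay above every control. In the same group avp was at 8.22 CPM in OT3, with a gap of 0.73 of the range, and its log2 fold change was -0.59 with OT3 and -2.0004 without it.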

How the results depend on the processing

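The counts of members called moved by less than 1.5 times under every alternative run. No member was called after PNX-14 in hypothalamus (23 alternatives), in ovary (18) or for the difference between the organs (26), and at an unadjusted p under 0.05 there were 0 to 3, 0 to 2 and 0 to 3. Over all genes, DESeq2 called 5 in hypothalamus, 29 in ovary and 25 for the difference, against 0, 2 and 1 for edgeR, and in ovary edgeR called 9 with the replicate block, 5 with all 22 samples in 1 fit and 0 with at least 10 counts in every sample, none of them members. Over 17 alternatives, 24 to 27 members were higher in the hypothalamus than in the ovary, and 3 were lower. The 24 came from the fit of PNX-14 fish, and the alternatives with control fish gave 25 to 27. Of 383 values of single genes under an alternative, 378 kept their direction and their side of the threshold, and 5 turned direction, none of them called. The hypothalamus log2 fold change of NPY turned to 0.14 without the 5 hypothalami rich in egg RNA, to 0.11 with the pituitary marker level as a term and to 0.0904 without HC1, and lay between -0.4268 and 0.0904 when 1 library at a time was left out. Without those 5 hypothalami crhb turned to 0.0803 and trh to 0.17. Deviations from the group means were correlated between same-numbered samples. Between PNX-14 and control samples, which are different fish, the correlations were -0.29 to 0.32 in hypothalamus and 0.04 to 0.32 in ovary. Between hypothalamus and ovary they were -0.13 to 0.24 in controls and 0.08 to 0.15 after PNX-14. The numbers were not taken to pair samples in the main fits. With the replicate block, 0 members were called in hypothalamus, 0 in ovary and 0 for the difference between organs, and 25 were higher and 3 lower between organs. Depth limited the low precursors: pomca and nmbb rested on 9 to 33 reads per hypothalamus, and ovary ccka on 4 to 69.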

Other observations

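The 4 hypothalami with the highest vip (HT4, HT5, HC1 and HC6) also held the highest values of transcription factors known from sensory neurons, genes chosen after their values were seen. drgx was at 10.7, 12.01, 14.8 and 10.8 CPM in these libraries and at most 4.33 CPM in the other 8, and isl2b was at 8.22, 10.01, 10.7 and 5.68 CPM, against at most 2.80 CPM. tlx2 was at 5.63, 4.005, 7.81 and 3.79 CPM, against at most 1.55 CPM, and prdm14 at 13.4, 10.1, 13.1 and 7.18 CPM, against at most 1.66 CPM. The neuron, myelin, oocyte and hypothalamus transcription factor marker lists overlapped between these libraries and the others.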
